A study of Mus musculus with 3 samples.

Results

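The genes described here are 10 genes that store, take up, export or sense iron: Ftl1, Fth1, Ncoa4, Trf, Tfrc, Slc11a2, Slc40a1, Cp, Heph and Ireb2. They were chosen by gene symbol, for their roles, from 46983 gene rows of a table of counts, and with their levels in these libraries already known, so the levels below are a description and carry no test. Each of the 10 passed the filter on low counts, which left 14409 genes. The cells came from the leptomeninges of vehicle-treated mice and were sorted by flow cytometry into a fraction labelled as enriched for pia, the inner of these membranes. Bulk RNA sequencing of 3 libraries gave 1 group, with no other treatment, genotype or tissue to compare. The labels give no strain, sex or age, do not say what the vehicle was, and do not say whether each library came from its own animals, so the spread between libraries may be technical. In a bulk sample, fewer cells of a type and less RNA per cell cannot be told apart.

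Cells take up iron mainly as a complex with transferrin, which binds the transferrin receptor and is drawn inside the cell, where a divalent metal transporter moves the freed iron into the cytosol. Spare iron is stored inside ferritin, a hollow shell of heavy and light chains, and leaves the cell through ferroportin with the help of copper-containing oxidases. Iron regulatory proteins adjust these steps when iron is scarce. They bind hairpins in messenger RNA called iron-responsive elements, blocking translation when the hairpin lies before the coding sequence and protecting the message from decay when it lies after it. In the brain, transferrin is best known from oligodendrocytes and choroid plexus, and membrane-bound ceruloplasmin from astrocytes.

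The hairpins are shown because they are the sequence feature that ties storage, uptake and export genes to the same regulators. All positions come from GENCODE M21 (GRCm38), whose transcripts were searched on the sense strand of the untranslated regions for the loop CAGTGN, flanked on each side by 5 bases that pair with each other (G-T pairs allowed), with a C just before the paired bases. Of 20582 genes with an upstream region long enough to search, 31 (0.151%) held a match, and of 20978 genes with such a downstream region 129 (0.615%) did. Among the 10 iron genes, Ftl1, Fth1 and Slc40a1 matched upstream of the coding sequence, each once, and Tfrc matched 4 times downstream of it. The windows below are 30 bases, 5′ to 3′ on the strand of the gene, with the loop in capitals, and were read from the reference, not from these libraries.

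Ftl1, chr7:45459778-45459807, minus strand: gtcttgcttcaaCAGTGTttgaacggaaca
Fth1, chr19:9982732-9982761, plus strand: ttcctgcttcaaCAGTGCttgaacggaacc
Slc40a1, chr1:45925464-45925493, minus strand: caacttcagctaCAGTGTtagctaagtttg
Tfrc site 1, chr16:32631219-32631248, plus strand: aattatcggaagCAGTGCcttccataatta
Tfrc site 2, chr16:32631598-32631627, plus strand: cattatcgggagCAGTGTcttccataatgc
Tfrc site 3, chr16:32631663-32631692, plus strand: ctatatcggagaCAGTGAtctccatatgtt
Tfrc site 4, chr16:32631710-32631739, plus strand: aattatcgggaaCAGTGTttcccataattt

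The windows of Ftl1 and Fth1 were identical at 26 of 30 positions, whereas that of Slc40a1 matched each of them at 13. Sites 1 and 2 of Tfrc were identical at 25 of 30 positions. The other 6 genes held no match to this exact pattern, which says only that these letters and pairs were not found. The pattern can miss known elements, as it found none in Epas1, whose message is known to carry one. A match is a description of the reference sequence, and protein binding was not measured here.

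Values are counts per 1000000 gene counts (CPM), scaled between libraries by TMM, and errors are SD over 3 libraries. Gene counts ranged from 21002860 to 28704952 per library. Library 1 stood apart from libraries 2 and 3 along base composition: among 10 equal classes of GC content, in the lowest (median 39.9%) it lay 1.06 below the mean of the others on the log2 scale, as a median, and in the highest (median 59.4%) it lay 0.37 above. The difference of library 1 from the others is therefore given for each of the 10 genes as counted and with the trends along GC content and length removed, and some levels and ratios are given both ways. Fibroblast markers were abundant in every library, with a summed level of 24202 to 29630 CPM over 7 genes led by Col1a2 and Col1a1. The 7 genes of the leptomeningeal fibroblast list, led by Slc47a1 and Aldh1a2, summed to 1005 to 1454 CPM. Slc47a1 made up most of that sum, at 845, 1238 and 1053 CPM in libraries 1, 2 and 3. The lowest means on the list were those of Igfbp2 (16.9 CPM), Slc6a13 (5.61 CPM) and Lama1 (0.279 CPM), the last with no count in library 1.

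Per kilobase, ferritin messages were the most abundant of the iron genes in 3 of 3 libraries. Ftl1, which encodes the light chain that nucleates the iron core (ENSMUSG00000050708.14, chromosome 7, 45457944 to 45459884), gave 6235 CPM in library 1, against 2077 and 2609 CPM in the other two. Library 1 stood high, and the other libraries lay close to each other. The mean was 3641 ± 2263 CPM (SD, n = 3), or 2343 CPM over libraries 2 and 3, and library 1 was 2.66 times that pair. With the trends along GC content and length removed, Ftl1 was at 4575, 2679 and 2718 CPM in the same order, so that library 1 was still the highest.

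Fth1 encodes the heavy chain, whose ferroxidase site oxidises iron as it enters the shell (ENSMUSG00000024661.6, chromosome 19, 9980598 to 9985098). It was at 1823, 1570 and 2567 CPM in libraries 1, 2 and 3 (1987 ± 518, SD, n = 3). Here library 3 was the highest and library 1 lay between the others, unlike in Ftl1. Of the counts given to either ferritin chain, Ftl1 held 77.4% in library 1 (95% Wilson interval 77.2 to 77.6%), 57.0% in library 2 (56.7 to 57.2%) and 50.4% in library 3 (50.1 to 50.7%). These intervals cover counting error only, since amplified reads without molecular identifiers are not independent molecules. The highest share was in library 1 and the lowest in library 3. Both chains together held 0.563% ± 0.224 of scaled gene counts.

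Per kilobase of all annotated exons, the ratio of heavy to light chain message was 0.113, 0.292 and 0.380 in libraries 1, 2 and 3 (0.262 ± 0.136, SD, n = 3). It was 0.336 without library 1. The ratio depends on the length assigned to each gene, because the exons annotated for Fth1 include retained introns and span 3469 bases, against 1340 for Ftl1. Per kilobase of the principal transcript, here the longest of those that the annotation tags as principal, the ratio was 0.189, 0.490 and 0.637. Light chain message thus exceeded heavy chain message in 3 of 3 libraries under both lengths, and by the widest margin in library 1. In counts with no length applied, the ratio was 0.292, 0.756 and 0.984, so the margin in library 3 depends on the lengths. Removal of the trends gave a ratio per kilobase of all exons of 0.149, 0.230 and 0.369, still lowest in library 1.

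Ferritin genes have related copies elsewhere in the genome, and reads that align to several places were not counted to any gene. Of 14 annotated genes whose GENCODE M21 names begin with Ftl or Fth, other than the members, 13 were in the table and 5 had a count in any library. The most abundant was listed in the table under the symbol Gm10116, at 98.5, 14.1 and 19.7 CPM in libraries 1, 2 and 3. Its highest library was that of Ftl1. Gm20746 followed at a mean of 0.901 CPM, and the pseudogene Ftl2-ps at 0.756 CPM. The 13 genes together made up 1.25%, 0.414% and 0.398% of the counts of ferritin-like genes in libraries 1, 2 and 3. They were taken by name and not by sequence likeness, so they can include distant relatives and miss copies under other names. The reads lost to several positions cannot be assigned here, and the levels of both ferritins are uncertain to that extent.

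Ncoa4 is the cargo receptor that carries ferritin to the lysosome, where its iron is released (ENSMUSG00000056234.14, chromosome 14, 32159865 to 32179855). It was at 53.4, 47.7 and 59.9 CPM (53.7 ± 6.09, SD, n = 3). No library stood apart: its range over libraries, 0.32 on the log2 scale, was the smallest of the 10 genes. After removal of the trends the range was 0.73, with library 1 the highest, so this evenness held only for the values as counted.

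**Figure D1:**
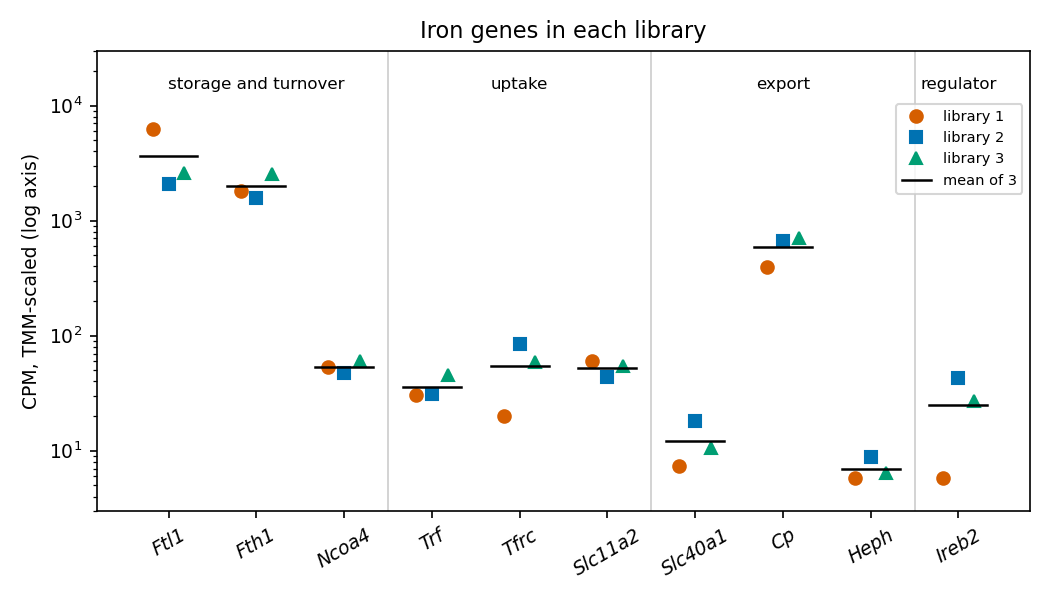
CPM of each iron gene (logarithmic vertical axis) in libraries 1, 2 and 3, with a bar at the mean of the 3 libraries, grouped by role. Ftl1 was highest in library 1 at 6235 CPM, whereas Tfrc and Ireb2 were lowest there at 19.9 and 5.82 CPM.

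On the uptake side, the transferrin receptor varied most as counted, but not with the trends removed. Tfrc (ENSMUSG00000022797.15, chromosome 16, 32608920 to 32632794) gave 19.9 CPM in library 1, against 85.2 CPM in library 2 and 58.7 in library 3. Library 1 was low and library 2 the highest, a 4.29-fold span. The mean was 54.6 ± 32.9 CPM (SD, n = 3), and 71.97 CPM over libraries 2 and 3. With the trends removed, Tfrc was at 35.6, 57.6 and 48.3 CPM, and the range over libraries fell from 2.05 to 0.68 on the log2 scale.

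Trf encodes transferrin, the carrier that the receptor binds (ENSMUSG00000032554.15, chromosome 9, 103204001 to 103230444). It was at 30.5, 31.0 and 45.6 CPM in libraries 1, 2 and 3 (35.7 ± 8.57, SD, n = 3). Libraries 1 and 2 were alike and library 3 was higher. With the trends removed Trf was at 26.7, 33.8 and 47.6 CPM, a range of 0.81 on the log2 scale and the widest of the 3 uptake genes. Cell types known for transferrin were not evenly represented. Among oligodendrocyte markers, Mobp was at 45.2, 40.6 and 57.5 CPM in libraries 1, 2 and 3. Mog had no count in library 2 and Ermn none in library 1, where 3 counts, the most that a count of 0 allows, are 0.101 and 0.152 CPM. The 7 choroid plexus markers, led by Ttr and Enpp2, summed to 113, 3262 and 4949 CPM. Trf was 1.49 times as high in its highest library as in its lowest, whereas the choroid plexus sum spanned 113 to 4949 CPM. The part of these cell types in the Trf level was not tested.

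Slc11a2 encodes the divalent metal transporter DMT1, which moves iron out of the endosome (ENSMUSG00000023030.16, chromosome 15, 100387898 to 100425072). Its level was 60.8, 43.4 and 54.2 CPM (52.8 ± 8.76, SD, n = 3), with library 1 the highest and library 2 the lowest. Per kilobase of all exons, Tfrc stood to Slc11a2 at 0.336 in library 1, 2.02 in library 2 and 1.11 in library 3. The receptor was thus below the endosomal transporter in library 1 only, and after removal of the trends it was below it in libraries 1 and 3 (0.622, 1.36 and 0.891), as it was per kilobase of the principal transcript (0.202, 1.21 and 0.670).

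The export genes were uneven. Cp, which encodes the ferroxidase ceruloplasmin (ENSMUSG00000003617.16, chromosome 3, 19957054 to 20009145), had 399, 667 and 708 CPM in libraries 1, 2 and 3 (591 ± 168, SD, n = 3). Libraries 2 and 3 were alike, with a mean of 688 CPM, and library 1 was lower. That order did not hold with the trends removed, when the values were 632, 478 and 621 CPM and library 2 was the lowest. Cp is known from astrocytes, and the 6 genes of the astrocyte list summed to 727, 604 and 495 CPM, highest in library 1. That order was the order of Gjb6, which made up most of the sum at 679, 559 and 419 CPM. The sum therefore cannot be read as a level of astrocytes, whose part in the Cp level was not tested. The other 5 markers were each highest in library 3. Slc1a3 was at 31.8, 24.1 and 38.8 CPM, Gfap at 7.79, 6.38 and 9.36 CPM, and Aqp4 at 0.556, 0.571 and 4.43 CPM.

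Slc40a1 encodes ferroportin, the known iron exporter of mammalian cells (ENSMUSG00000025993.10, chromosome 1, 45908068 to 45926523). It was at 7.38, 18.3 and 10.6 CPM in libraries 1, 2 and 3 (12.1 ± 5.59, SD, n = 3), with a mean of 14.4 CPM over libraries 2 and 3. Library 2 was the highest and library 1 the lowest, though with the trends removed the values were 11.5, 13.3 and 9.35 CPM and library 3 was the lowest. Macrophages are rich in ferroportin, and 7 macrophage and microglia markers, led by C1qb and C1qc, summed to 7.48, 167 and 486 CPM. Their order over libraries was not that of Slc40a1: the markers were highest in library 3 and Slc40a1 in library 2. The part of macrophages in the Slc40a1 level was not tested.

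Heph encodes hephaestin, a membrane ferroxidase related to ceruloplasmin (ENSMUSG00000031209.14, chromosome X, 96455359 to 96574485). At 5.76, 8.77 and 6.40 CPM (6.98 ± 1.58, SD, n = 3) it had its highest level in library 2. Its mean per kilobase of exon, 0.911 CPM, was the lowest of the 10 genes. Per kilobase of all exons, Cp exceeded Heph 55.4-, 61.0- and 88.7-fold in libraries 1, 2 and 3, and exceeded Slc40a1 50.8-, 34.4- and 62.9-fold. Ceruloplasmin was thus the more abundant ferroxidase message in 3 of 3 libraries.

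Ireb2 encodes iron regulatory protein 2, one of the proteins that bind the hairpins shown above (ENSMUSG00000032293.7, chromosome 9, 54863789 to 54912530). Its level was 5.82, 42.7 and 26.8 CPM in libraries 1, 2 and 3. Library 1 was far below the others, and the 7.34-fold span was the widest of the 10 genes. The mean was 25.1 ± 18.5 CPM (SD, n = 3), and 34.8 CPM over libraries 2 and 3. With the trends removed it was at 11.2, 26.9 and 22.0 CPM, still lowest in library 1. Aco1, which encodes iron regulatory protein 1, varied less, at 106, 87.5 and 80.7 CPM. Per kilobase of all exons, Ireb2 stood to Aco1 at 0.0260, 0.232 and 0.158, so Aco1 message was the more abundant in 3 of 3 libraries. After removal of the trends this ratio was 0.0556, 0.137 and 0.125.

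Levels of different genes can be set against each other only per length. Per kilobase of all annotated exons, the order was Ftl1 (2717 ± 1689 CPM per kilobase), Fth1 (573 ± 149), Cp (61.8 ± 17.6), Trf (10.8 ± 2.58), Tfrc (8.83 ± 5.32), Slc11a2 (8.31 ± 1.38), Ncoa4 (5.73 ± 0.650), Ireb2 (2.65 ± 1.95), Slc40a1 (1.34 ± 0.622) and Heph (0.911 ± 0.207; SD, n = 3). Neighbours whose library values overlapped were Trf with Tfrc, Tfrc with Slc11a2, Ireb2 with Slc40a1, and Slc40a1 with Heph. Within libraries, Slc40a1 lay above Heph in 3 of 3, and each of the other pairs kept its order in 2 of 3. Ftl1, Fth1 and Cp each lay above the next gene in 3 of 3 libraries with no overlap. Among 14375 ranked genes with a length, Ftl1 was the 9th and Fth1 the 62nd most abundant per kilobase, and Cp was at percentile 94.3. The other genes lay between percentile 19.4 (Heph) and 73.6 (Trf), and 7 of the 10 were above the median of 3.70 CPM per kilobase.

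The middle of that order depended on the length used. Per kilobase of the principal transcript, an alternative chosen after seeing the data, Ftl1, Fth1 and Cp kept the first places, at 3761 ± 2337, 1330 ± 347 and 147 ± 41.7 CPM per kilobase. Slc11a2 (17.5 ± 2.90) then came before Trf (13.9 ± 3.33), Ncoa4 (13.2 ± 1.497) and Tfrc (11.2 ± 6.72), whose library values overlapped from neighbour to neighbour. Slc40a1 (3.59 ± 1.66) no longer overlapped Heph (1.47 ± 0.334).

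**Figure D2:**
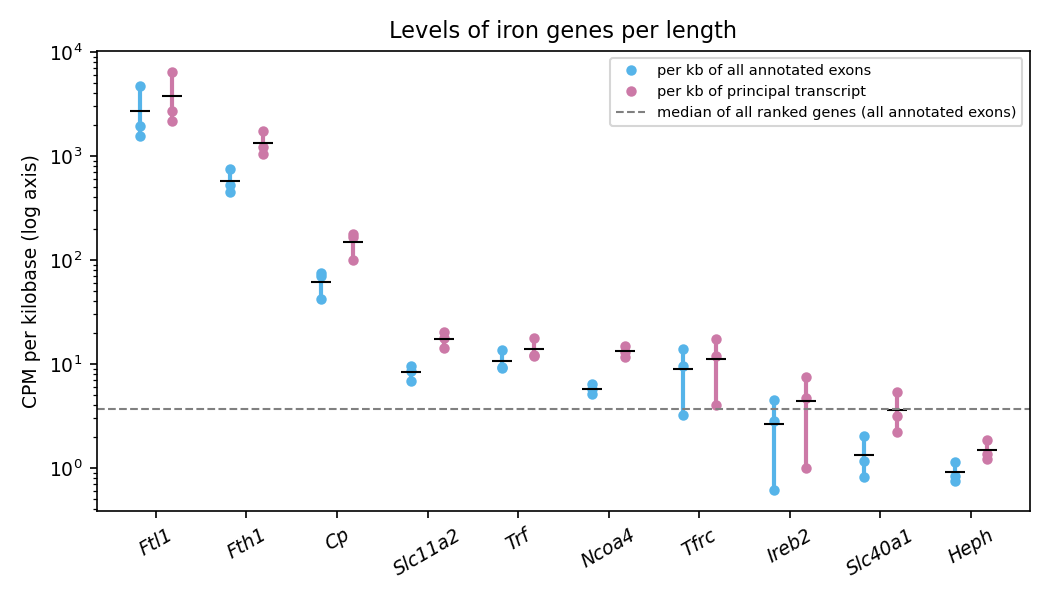
CPM per kilobase of each iron gene (logarithmic vertical axis), over all annotated exons and over the principal transcript, ordered by the latter. Points are the 3 libraries, vertical lines their range, black bars their mean and the dashed line the median of all ranked genes over all exons. Ftl1, Fth1 and Cp lie above the other 7 genes under both lengths.

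Variation between libraries was read from edgeR's goodness-of-fit test fitted over 14409 genes, which asks whether a gene's counts differ between the 3 libraries by more than genes of its abundance do. At an adjusted p below 0.05 (Benjamini-Hochberg), 0 of the 10 iron genes were called, where 0.437% of all tested genes were. At an unadjusted p below 0.05 there were 3 of 10, Ireb2, Tfrc and Ftl1, where 7.04% of all tested genes were. The edgeR adjusted p was 0.109 for Ireb2, 0.349 for Tfrc and 0.554 for Ftl1. Since the genes were picked with their levels known, nothing is read from these counts. The median range over libraries was 0.77 on the log2 scale for the 10 genes and 0.67 for all tested genes.

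Those genes were also the extremes in GC content. Ireb2 (39.0%) and Tfrc (39.8%) fell in the lowest of the 10 GC classes, and Ftl1 (58.1%) in the highest. Library 1 minus the mean of libraries 2 and 3 was -2.35 for Ireb2, -1.78 for Tfrc and 1.42 for Ftl1 on the log2 scale. Each of these lay beyond the median of its class, in the direction of that median. With the trends removed the differences were -1.05, -0.55 and 0.76, of the same sign. For Slc40a1 the difference went from -0.83 to 0.03, for Cp from -0.78 to 0.21, and for Heph from -0.33 to 0.02, so their lower level in library 1 was not seen after the removal. Ncoa4 went the other way, from 0.00 to 0.47. Fth1 (-0.14 and -0.21), Trf (-0.29 and -0.57) and Slc11a2 (0.32 and 0.25), with GC contents of 50.0 to 52.5%, moved less.

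**Figure D3:**
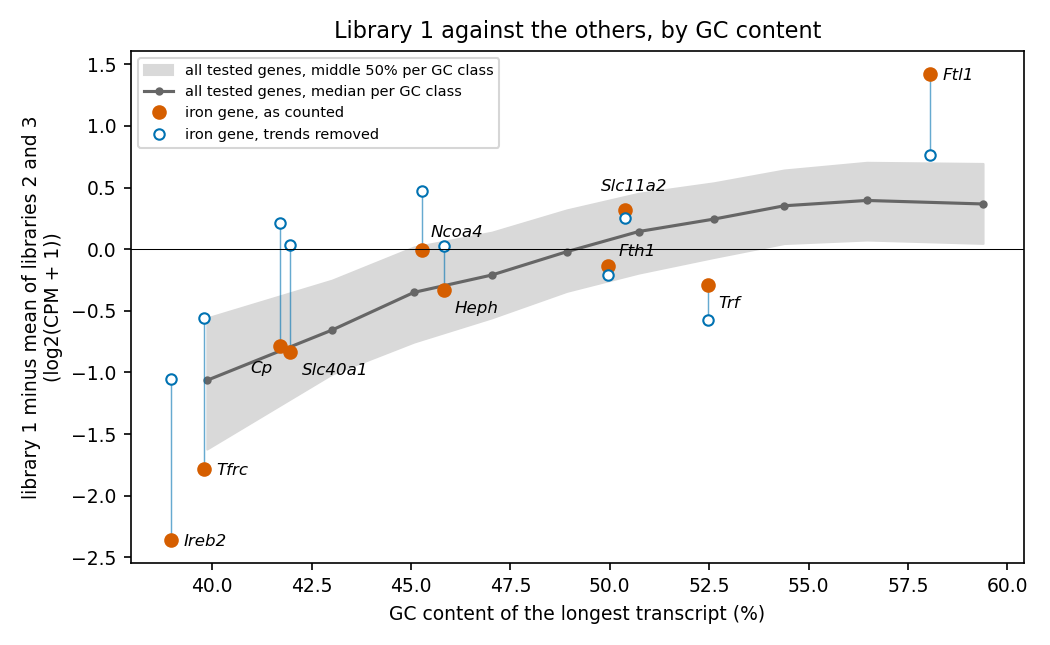
Library 1 minus the mean of libraries 2 and 3 (log2(CPM + 1)) against the GC content of the longest transcript. The grey line and band give the median and the middle 50% of all tested genes per GC class; filled points are the iron genes as counted and open points the same genes with the trends removed. Ireb2, Tfrc and Ftl1 lie farthest from 0 as counted, at -2.35, -1.78 and 1.42.

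Genes with a pattern like that of the 2 genes with the widest ranges as counted, Ireb2 and Tfrc, were sought among 1832 genes with a mean of at least 100 CPM, by the distance between log2 values centred on their mean over 3 libraries. Nearest to Ireb2 were Marcks (distance 0.068), Tug1 (0.108) and Aspn (0.113). Nearest to Tfrc were Atrx (0.076), Csnk1a1 (0.119) and Tmx1 (0.165). The GC contents of these 6 genes ran from 34.4% for Aspn to 45.1% for Marcks, all below 50%. With 3 libraries such a likeness is weak, and with the trends removed Tfrc was no longer among the 2 widest ranges.

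A list of 68 other iron genes, grouped by role, was read beside the 10. Of these, 59 passed the filter and 1 was called, Hmox1, where 0.437% of all tested genes were called. An unadjusted edgeR p below 0.05 was found for 5 of the 59 (8.47%), near the 7.04% of all tested genes, against which the counts by role below are also to be read. As counted, their median log2 range was 0.55 and their median difference of library 1 from the others 0.18, against 0.67 and 0.00 for all tested genes.

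Hmox1 encodes haem oxygenase 1, the inducible enzyme that opens the haem ring and frees its iron. It was at 1858, 288 and 259 CPM in libraries 1, 2 and 3, library 1 being 6.79 times the mean of the other libraries (edgeR adjusted p = 0.000883). With the trends removed it was at 1489, 339 and 271 CPM. The adjusted p lay between 0.000228 and 0.0195 in the 6 alternatives that used all libraries. With 2 libraries it did not pass: the edgeR adjusted p was 0.9996 without library 1, 0.0595 without library 2 and 0.190 without library 3. Its constitutive relative Hmox2 was at 160, 121 and 123 CPM. Hmox2 is named after its values were seen. Of the 59 other iron genes, 33 (55.9%) were highest in library 1 as counted, where 39.7% of all tested genes were. Among all tested genes, the median log2 difference of library 1 was 0.14 in the GC class around 50.7% and 0.40 in that around 56.5%. The share of 55.9% was not taken with the trends removed, so it is not read as a trait of iron genes. Abcg2, an exporter that can carry haem precursors, was at 176, 279 and 339 CPM. The haemoglobin and other erythroid genes, led by Hbb-bs and Hba-a1, also summed highest in library 1, at 804 CPM against 199 and 329 CPM over 7 genes. Hbb-bs itself was at 508, 113 and 209 CPM. The part of red blood cells in the Hmox1 and Ftl1 levels was not tested.

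None of the 10 tested receptor and ferrireductase genes was called, and 1 had an unadjusted edgeR p below 0.05. The leading ones were Cybrd1, a ferrireductase, at 279, 224 and 191 CPM, and Steap4, a metalloreductase, at 144, 188 and 253 CPM. Cybrd1 was highest in library 1 and Steap4 lowest there. Of 7 siderophore and scavenger genes 4 were tested and 0 called, with 1 at an unadjusted edgeR p below 0.05. Lrp1, a scavenger receptor that takes up haem bound to hemopexin among many ligands, was at 2195 ± 436 CPM, and Slc22a17, a receptor for lipocalin 2, at 38.7 ± 5.93 CPM (SD, n = 3). Lcn2, the siderophore-binding lipocalin itself, named after its values were seen, was at 0.405, 1.98 and 16.7 CPM and did not pass the filter.

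Of the 6 regulators linked to iron or oxygen sensing, 0 were called and 1 had an unadjusted edgeR p below 0.05. Epas1, the hypoxia-inducible factor whose message carries an iron-responsive element, was at 348, 244 and 283 CPM, and Aco1 followed. In the hepcidin axis 5 of 9 genes were tested, and 0 were called or had an unadjusted edgeR p below 0.05. Neo1, a coreceptor of hemojuvelin, was at 205 ± 50.0 CPM and Hfe, the partner of transferrin receptors, at 163.5 ± 45.0 CPM (SD, n = 3). Hamp, which encodes hepcidin and is named after its values were seen, had 4 counts in library 1 and 0 in libraries 2 and 3, where a count of 0 allows up to 3. Erfe, Ftmt and Prom2 had no count in any library.

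Of 6 chaperone and ferritin turnover genes 4 were tested and 0 called, with 0 at an unadjusted edgeR p below 0.05. Nfe2l2, the transcription factor NRF2 that drives ferritin and Hmox1, was at 343, 303 and 305 CPM, and Pcbp1, a chaperone that loads iron into ferritin, at 102, 104 and 107 CPM. All 12 mitochondrial genes were tested and 0 called, with 1 at an unadjusted edgeR p below 0.05. The transporter Abcb8 was at 70.8 ± 18.5 CPM (SD, n = 3). All 9 haem synthesis genes were tested and 0 were called or had an unadjusted edgeR p below 0.05. Urod was at 151, 103 and 97.2 CPM, and Alas1, the rate-limiting enzyme outside red cells, at 91.8, 87.0 and 89.0 CPM. Of these 9 genes, 6 were highest in library 1 as counted, where 39.7% of all tested genes were, and this was not taken with the trends removed.

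**Figure D4:**
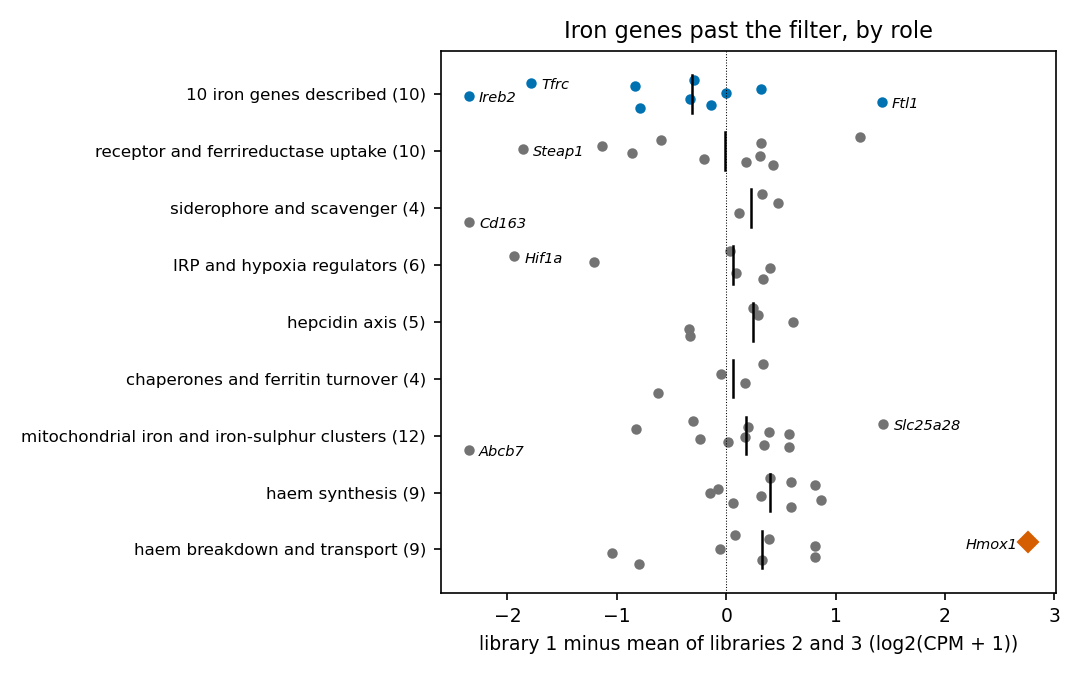
Library 1 minus the mean of libraries 2 and 3 (log2(CPM + 1), horizontal axis) for the 10 iron genes and the 59 other iron genes past the filter, by role. Each point is a gene, blue points are the 10 genes, black bars are medians and the diamond marks the gene called by the test. Hmox1 lies farthest to the right, at 2.76, and Ftl1 lies at 1.42.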

How the data were processed

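Total RNA of sorted cells was amplified as cDNA with a SMART-Seq kit before library preparation and paired-end sequencing, per the labels' protocols. The values are counts per gene as deposited by the authors, whole numbers with no normalization. The submitters' processing notes name mm10, HTSeq 0.5.3 and DESeq2 1.22.1; the aligner, annotation release and strand setting are not given in the sources used here, so overlapping and antisense genes could not be separated. Counter rows for reads given to no gene (45.6%, 39.1% and 39.6% of libraries 1, 2 and 3) were left out. Of the gene identifiers, 46488 matched GENCODE M21, which gave lengths, GC content and coordinates. edgeR 4.0.16 under R 4.3.3 scaled libraries by TMM, filtered genes at a minimum count of 10 (filterByExpr) and fitted an intercept-only model; genes varying between libraries were tested by goodness of fit (deviance against chi-square, 2 degrees of freedom, with the dispersion taken from the trend), adjusted by Benjamini-Hochberg over 14409 genes at 0.05. The test was run on simulated data, with outcomes not reported here, so nothing is claimed about its power for the 10 genes. Log2 values are log2(CPM + 1), which understates changes of low genes. Trends with GC content and exon length were removed by lowess (span 0.2) per library. Alternatives were other size factors, filters, dispersions and lengths, the removal of these trends, and leaving out each library.

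The members and lists were chosen with earlier results of these data known. The rule named every member, the 2 most abundant genes of each iron role and cell type list, every listed gene called variable, up to 3 ferritin copies, and the 3 genes nearest in pattern to each of the 2 members most variable as counted. Some results that this rule would name are not reported here. Markers of mural cells (6 genes led by Acta2 and Tagln) summed to 2495, 2230 and 4376 CPM, of endothelium (7, led by Cdh5 and Egfl7) to 93.3, 71.4 and 82.9 CPM, of neurons (6, led by Snap25 and Tubb3) to 68.1, 88.1 and 83.3 CPM, and of lymphocytes (5, led by Cd79a and Cd79b) to 2.68, 53.7 and 62.0 CPM in libraries 1, 2 and 3.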

Additional observations from a re-analysis of the deposited data

Results flagged for a closer look

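Reads that aligned to more than 1 place made up 16.5% of all reads in the table as a mean of 3 libraries (16.9%, 15.3% and 17.4% in libraries 1, 2 and 3), a signal outside the counts used above and far beyond what a count of 0 allows. They bear on the ferritins, whose copies share sequence with them, but the table does not say from which genes they came.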

How the results depend on the processing

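No paired analysis was possible because the study has only 1 group. The number of iron genes called variable stayed at 0 of 10 under each of the 9 alternatives, at an unadjusted count of 3 in the edgeR test reported. The number of genes called among all tested (63) was 111 with the GC content and length trends removed, 134 with no filter on low counts and 181 with a filter on the mean count, the last pair testing more genes, and ranged from 12 to 28 when each replicate was left out, with fewer samples; the cause of the rise to 111 was not tested. The heavy to light ferritin ratio per kilobase (0.262) was 0.439 per principal transcript, which shortens Fth1 more than Ftl1. Lengths of the principal or the longest transcript moved the level per kilobase of 7 of the 10 genes by more than its SD. Ranges and library 1 differences were set against the SD of the gene's own log2 values over libraries. Size factors moved no level, range or library 1 difference by more than its SD. Removal of the trends moved 5 of 10 ranges and 5 of 10 library 1 differences. A difference not moved by this measure could still shrink: that of Ireb2 went from -2.35 to -1.05 and that of Ftl1 from 1.42 to 0.76. Leaving out 1 library moved 10 of 30 ranges, 1 for each gene. That count follows from the measure and says nothing about the genes. Of any 3 values, leaving out the 1 farthest from the others shrinks the range by about the SD or more. Leaving out another value does not. Without library 1, the log2 range was 0.33 for Ftl1, 0.53 for Tfrc, 0.08 for Cp and 0.65 for Ireb2. Without library 2, it was 0.47 for Slc40a1, 0.16 for Slc11a2 and 0.13 for Heph. Without library 3, it was 0.21 for Fth1, 0.03 for Trf and 0.15 for Ncoa4. Depth limits the lowest genes: 3 counts are 0.152, 0.101 and 0.116 CPM in libraries 1, 2 and 3.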
